A study of Mus musculus with 6 samples.

Results

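The genes described are the heat shock proteins and chaperones of mouse neurons: the families named Hsp, Dnaj, Cct and Bag, with Tcp1, Cryab and the heat shock factor genes Hsf1 and Hsf2. They were matched by gene symbol, and 93 of the 23235 genes in the authors' deposited tables matched. RNA sequencing covered 6 libraries of primary cortical and hippocampal neurons from mouse embryos at day 15, grown for 17 days in culture. The 3 groups of 2 libraries were HDAC2 knockdown (HDAC2 shRNAs), Sp3 knockdown (Sp3 shRNAs) and control. All cultures received 1 uM AraC, which kills dividing cells, on day 5 and lentivirus expressing shRNA on day 12. HDAC2 is a histone deacetylase, Sp3 is a zinc finger protein that recognises GC boxes in promoters, and the stated question was whether they control shared genes. The sources used here do not give what the control virus carried, how many shRNAs were used, or whether both libraries of a group were separate cultures, so the spread behind the p-values may be technical.

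Chaperones bind unfolded or partly folded proteins and help them to fold, to cross membranes or to be degraded. Hsp70 proteins cycle on and off their clients under the control of J-domain proteins, which stimulate their ATPase, and of nucleotide exchange factors such as the Hsp110 and BAG proteins. Hsp90 acts on kinases and steroid receptors, the TRiC chaperonin folds actin and tubulin, and small heat shock proteins hold aggregation-prone clients. Heat shock factor 1 induces many of these genes under heat or protein stress by binding heat shock elements in their promoters, while constitutive members such as Hspa8 are abundant in neurons without any stress.

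Each group has 1 FPKM value in the authors' deposited tables (fragments scaled to transcript length and library total, comparable between genes), and no value per library. Hdac2 stood at 12.3 FPKM in HDAC2 knockdown and 49.4 FPKM in control, and Sp3 at 5.82 FPKM in Sp3 knockdown and 15.5 FPKM in control, so each target was lower in the libraries named for it. As deposited, before the centring described below, Hdac2 was also lower in Sp3 knockdown, at 38.8 FPKM (authors' q = 0.00598). Its centred result there is not given. Sp3 was higher in HDAC2 knockdown, at 26.7 FPKM (authors' q listed as 0). The part of these changes in the differences between knockdowns was not tested. The median gene of at least 1 FPKM was shifted by 0.32 on the log2 scale in HDAC2 knockdown and by -0.13 in Sp3 knockdown. Log2 fold changes of knockdown over control are therefore given relative to that median (centred), with the standard error (SE) implied by the authors' test, and a gene is said to have risen or fallen where its p, adjusted by the Benjamini-Hochberg method over all tested genes, was under 0.05. Whether the shift came from scaling or from a real move of most genes cannot be told apart. The p is not from an exact test, which 1 value per group does not allow, but from the Cuffdiff statistic that the authors fitted over the whole table. Counts of members, families and lists from the authors' q-values, which carry the shift, are given as deposited counts.

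Upstream sequences are shown for 6 members chosen by hand from those that passed the test, so they do not stand for all members. Bag3, Hspb8, Hspe1 and Dnajb9 fell in Sp3 knockdown, and Dnajc10 and Dnajc27 rose in it. The bases are the 250 upstream of the annotated start, 5′ to 3′ on the gene's strand, from RefSeq on GRCm38.p6, whereas the deposited tables use mm9. They lie at chr7:128523333-128523582, plus strand (Bag3), chr5:116422865-116423114, minus strand (Hspb8), chr1:55087898-55088147, plus strand (Hspe1), chr12:44210069-44210318, minus strand (Dnajb9), chr2:80315216-80315465, plus strand (Dnajc10) and chr12:4082324-4082573, plus strand (Dnajc27). Capitals mark GC boxes (GGGCGG or its reverse complement), the element that Sp proteins are known to bind, and heat shock elements (GAANNTTC, or the same units in the other order).
Bag3: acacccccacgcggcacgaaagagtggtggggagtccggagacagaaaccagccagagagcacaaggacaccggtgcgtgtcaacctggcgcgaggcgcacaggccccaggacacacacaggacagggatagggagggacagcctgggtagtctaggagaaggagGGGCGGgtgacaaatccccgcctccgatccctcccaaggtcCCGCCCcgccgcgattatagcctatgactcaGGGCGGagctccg
Hspb8: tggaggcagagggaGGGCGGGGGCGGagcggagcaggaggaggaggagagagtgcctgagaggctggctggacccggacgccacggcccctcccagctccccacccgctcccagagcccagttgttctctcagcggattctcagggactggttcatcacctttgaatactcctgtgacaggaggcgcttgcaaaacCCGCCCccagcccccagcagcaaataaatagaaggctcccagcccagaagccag
Hspe1: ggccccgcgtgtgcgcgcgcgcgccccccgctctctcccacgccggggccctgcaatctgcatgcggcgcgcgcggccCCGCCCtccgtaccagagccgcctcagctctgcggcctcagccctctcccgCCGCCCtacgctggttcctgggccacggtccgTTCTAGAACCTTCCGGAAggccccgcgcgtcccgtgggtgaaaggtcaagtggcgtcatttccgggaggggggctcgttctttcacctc
Dnajb9: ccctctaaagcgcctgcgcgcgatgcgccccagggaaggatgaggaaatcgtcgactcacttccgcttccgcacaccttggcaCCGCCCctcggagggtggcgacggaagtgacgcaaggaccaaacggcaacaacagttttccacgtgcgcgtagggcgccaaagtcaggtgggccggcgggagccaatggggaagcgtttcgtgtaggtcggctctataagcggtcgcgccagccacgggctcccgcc
Dnajc10: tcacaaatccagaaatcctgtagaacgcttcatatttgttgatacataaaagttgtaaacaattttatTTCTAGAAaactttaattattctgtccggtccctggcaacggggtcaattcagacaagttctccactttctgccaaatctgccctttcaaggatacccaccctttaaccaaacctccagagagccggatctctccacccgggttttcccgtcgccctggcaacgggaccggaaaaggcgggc
Dnajc27: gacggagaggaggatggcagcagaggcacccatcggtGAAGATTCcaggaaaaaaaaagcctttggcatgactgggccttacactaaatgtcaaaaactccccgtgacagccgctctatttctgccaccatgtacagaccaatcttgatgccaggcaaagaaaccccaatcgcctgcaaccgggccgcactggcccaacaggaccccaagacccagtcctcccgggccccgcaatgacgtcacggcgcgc

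Bag3 and Hspb8 upstream regions each held 3 GC boxes, and neither held a heat shock element. The Hspe1 region, which Hspe1 shares with Hspd1 in the opposite direction, held 2 GC boxes and a run of 3 overlapping heat shock elements. The Dnajb9 region had 1 GC box and no heat shock element. Dnajc10 and Dnajc27 regions had no GC box and 1 heat shock element each. This split was not general. Among other members that rose in Sp3 knockdown, the Dnajc3 region held 2 GC boxes. Hspa12a had a region with 3 and Dnajc6 a region with 1, each beside a region with none. Among members that fell, the Hspa14 and Dnajc16 regions held none. Sequences were found for 75 of the 93 members, in 95 windows. A GC box on either strand was present in 70.5% of these windows, against 32.7% of the 32851 windows of all genes. The set of all genes was not limited to genes expressed in these cultures, so it is not matched to the members, here or for the motifs below. Among members that fell in Sp3 knockdown 16 of 20 windows held a GC box, and among members that rose 7 of 13 did. The heat shock element was present in 20.0% of member windows, against 12.8% of all windows, and its form with 3 units in 4.21% against 0.466%. The 4 member windows with 3 units were 2 windows of Dnajb6 and those of the neighbours Hspe1 and Hspd1. A CCAAT box was present in 34.7% of member windows, against 33.8% of all windows, with 0.779 matches a window in members, against 0.479 in all. A match is a description of these letters and not evidence of binding.

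In control cultures the chaperones spanned a wide range, and a few members, most of them cytosolic, carried a large part of the signal. Hspa8, the constitutive cytosolic Hsp70, had the highest level, at 1190 FPKM in HDAC2 knockdown, 1271 FPKM in Sp3 knockdown and 1210 FPKM in control. The next were the cytosolic Hsp90 genes Hsp90ab1 (753, 704 and 602 FPKM in the same order) and Hsp90aa1 (489, 444 and 400 FPKM), and Hspa5, which encodes the main Hsp70 of the endoplasmic reticulum (346, 300 and 363 FPKM). The 4 highest members made up 46.7% of the summed FPKM of all members in HDAC2 knockdown, 53.2% in Sp3 knockdown and 49.1% in control. All members together made up 0.965%, 1.20% and 1.09% of the summed FPKM of all genes in these groups. The median member stood at 14.8 FPKM in control, 56 members were above 10 FPKM and 8 were above 100 FPKM there.

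The 8 expressed genes of the TRiC ring, Tcp1, Cct2, Cct3, Cct4, Cct5, Cct6a, Cct7 and Cct8, whose products occur in equal number in the complex, lay close together, at 71.6 to 109 FPKM in control. Cct6b, a testis form of Cct6a, stood at 0.180 FPKM in HDAC2 knockdown, 0.154 FPKM in Sp3 knockdown and 0.127 FPKM in control. The heat-inducible Hsp70 genes were low. Hspa1a stood at 7.11 FPKM in HDAC2 knockdown, 3.71 FPKM in Sp3 knockdown and 4.71 FPKM in control, and Hspa1b at 8.15, 4.01 and 5.17 FPKM. Their transcripts are 99.0% identical over 2215 aligned positions with an identical stretch of 638 bases in GENCODE M21, so reads from them cannot be separated over long stretches and each value is uncertain. Genes grouped by symbol as small heat shock proteins (Hspb with a number, and Cryab) were mostly low as well. None of the 9 was above 6.34 FPKM in control, the value of Hspb11.

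**Figure D1:**
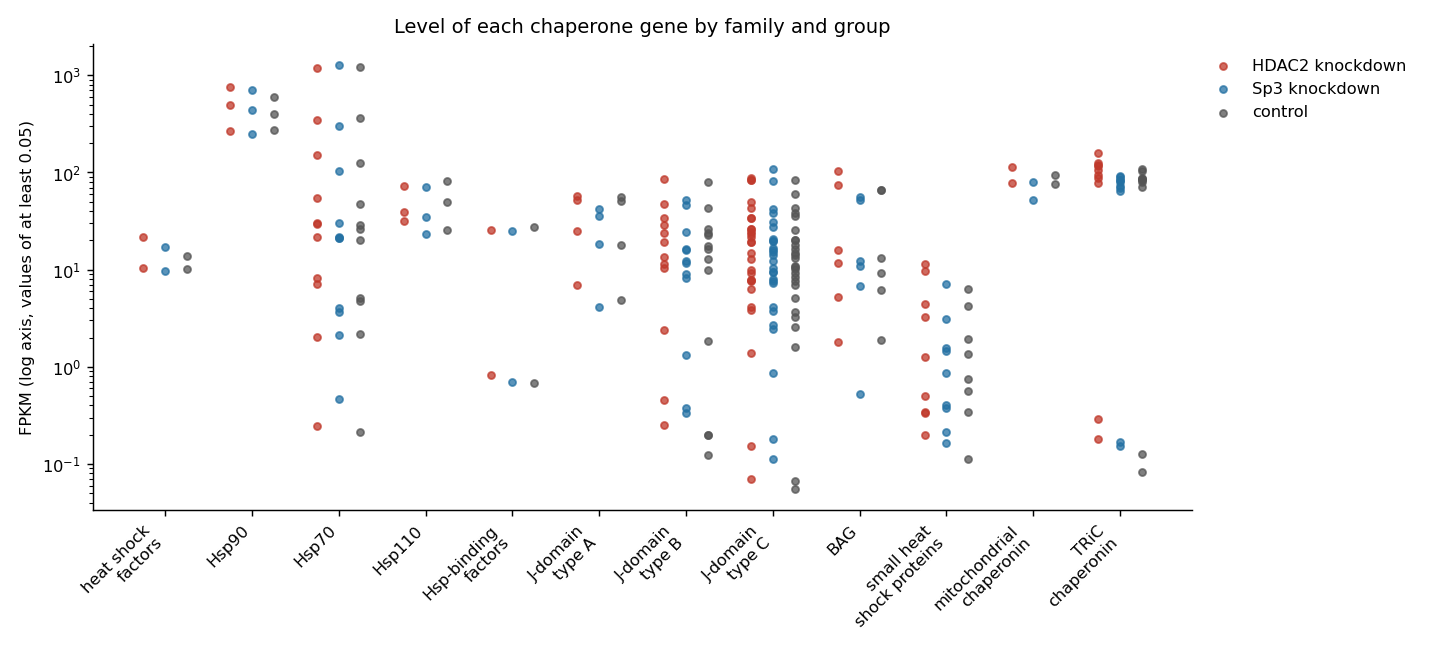
FPKM of each chaperone gene (vertical log axis) by family, with 1 point per gene and columns for HDAC2 knockdown, Sp3 knockdown and control; values under 0.05 are not drawn. Hspa8 and the cytosolic Hsp90 genes stand highest in all 3 groups, the TRiC genes cluster near 100 FPKM apart from 2 low members, and the small heat shock proteins are low.

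The authors' test covered 77 members in HDAC2 knockdown and 78 in Sp3 knockdown. Of the others, 15 were not tested in either, and Dnajc6 failed the test in HDAC2 knockdown. The 15 were all under 1.3 FPKM in every group. Among them was Hspb1, the stress-induced small heat shock protein gene, at 1.26 FPKM in HDAC2 knockdown and 0.380 FPKM in Sp3 knockdown, and listed at 0 in control. Dnajc5b was also listed at 0 in control, and Dnajb8 and Dnajc5g were listed at 0 in both knockdowns. The members that were tested had to be expressed well enough for the test in at least 1 group, and counts below are over them.

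How small a change could be seen depended strongly on the level. The SE of the log2 fold change had a median of 0.28 over members in HDAC2 knockdown and 0.13 in Sp3 knockdown, so smaller changes could be called in Sp3 knockdown. For the most abundant members it was far larger. Hspa8 had a centred log2 fold change of -0.34 ± 2.97 (SE) in HDAC2 knockdown and 0.20 ± 2.61 in Sp3 knockdown. Hsp90ab1 had 0.01 ± 1.58 and 0.36 ± 1.16, and Hsp90aa1 had -0.03 ± 0.99 and 0.28 ± 0.65. The 95% interval of Hspa8 in Sp3 knockdown ran from -4.90 to 5.31, so at this precision a change of severalfold in either direction would not have been called. Hspa5 (-0.38 ± 0.35 in HDAC2 and -0.14 ± 0.22 in Sp3 knockdown) and the mitochondrial Hsp70 gene Hspa9 (-0.06 ± 0.45 and -0.17 ± 0.21) were better bounded, and neither passed the test. Other abundant genes had wide errors too: among all genes above 200 FPKM in control the median SE was 0.47 in HDAC2 and 0.26 in Sp3 knockdown.

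**Figure D2:**
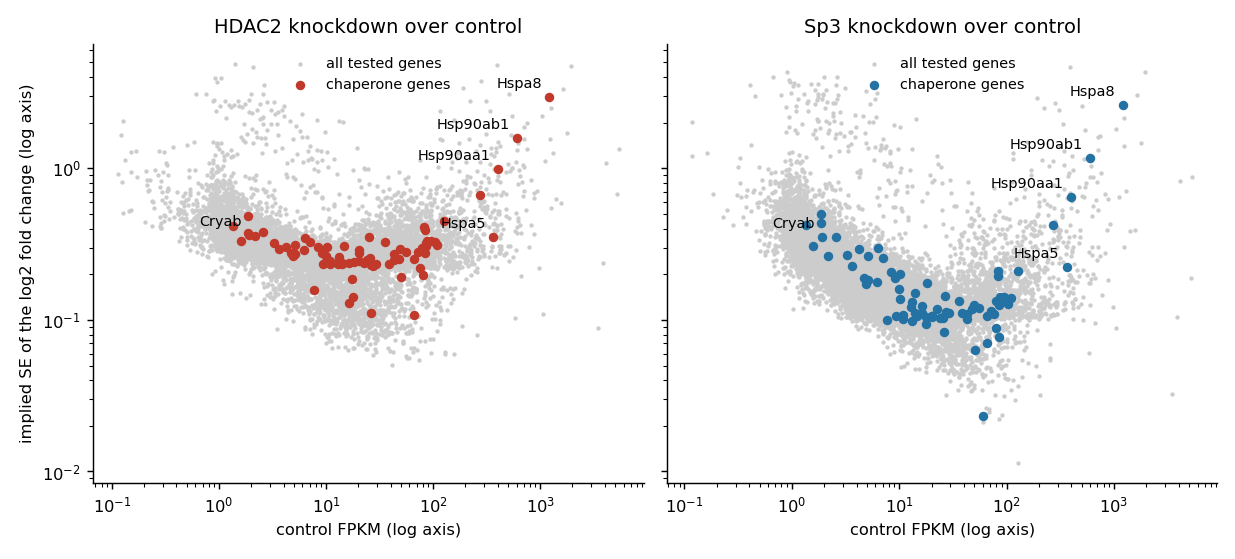
Implied standard error of each log2 fold change (vertical, log axis) against control FPKM (horizontal, log axis) for HDAC2 knockdown on the left and Sp3 knockdown on the right; grey points are the tested genes of at least 0.1 FPKM in control and coloured points the chaperone genes. The error is smallest at middle levels and rises to 2.97 and 2.61 for Hspa8.

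In HDAC2 knockdown few chaperone genes moved away from the median gene, and a small heat shock protein gene rose the most. Cryab (αB-crystallin), Hspb6 and Dnajc10 rose, and Dnajb2, Dnajc27 and Hspa14 fell. Of the 77 tested members 3 rose (3.90%, against 10.2% of all tested genes) and 3 fell (3.90%, against 7.59%). By q under 0.05 in the authors' deposited table, without centring, 14 members were higher (18.2%, against 24.6% of all genes) and 1 was lower (1.30%, against 3.6%). The shares of members were below those of all genes under both rules, and this difference was not tested. The median member had a log2 fold change of 0.25 as deposited and -0.06 after centring.

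Cryab, a small heat shock protein known in lens, muscle and glia, stood at 11.3 FPKM in HDAC2 knockdown, 3.10 FPKM in Sp3 knockdown and 1.92 FPKM in control, 5.90-fold higher in HDAC2 knockdown than in control as deposited. Its centred value was 2.25 ± 0.36 in HDAC2 knockdown (adjusted p of 2.23e-08) and 0.83 ± 0.35 in Sp3 knockdown (adjusted p of 0.0505), and the difference of 1.42 ± 0.51 between the knockdowns had an adjusted p of 0.0372. Hspb6, another small heat shock protein, stood at 4.44, 1.55 and 1.34 FPKM in the same order, with 1.41 ± 0.41 in HDAC2 knockdown (adjusted p of 0.00626). For Hspb6 the difference between knockdowns had an adjusted p of 0.251. Hspb2, which lies next to Cryab on chromosome 9 (50559176 to 50560459 in mm9, with Cryab at 50560862 to 50564738), was at 0.334 FPKM in HDAC2 knockdown, 0.211 FPKM in Sp3 knockdown and 0.564 FPKM in control and was not tested. Hspb8 (-0.69 ± 0.30) and Hspb11 (0.28 ± 0.35), the other tested genes of this group, did not pass in HDAC2 knockdown. Hspb11 was placed in the group by its symbol alone.

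Markers of glia moved in the same libraries. Of 10 tested astrocyte markers 6 rose and none fell in HDAC2 knockdown (deposited 7 higher and 0 lower). The 11 listed markers, with Fgfr3, which failed the test, summed to 1815 FPKM in HDAC2 knockdown, 542 FPKM in Sp3 knockdown and 632 FPKM in control. Of 11 tested oligodendrocyte lineage markers 8 rose and none fell (deposited 9 higher and 0 lower), and the 12 listed summed to 424, 123 and 212 FPKM in the same order. At an unadjusted p under 0.05 of the centred statistic, 6 astrocyte and 8 oligodendrocyte markers were higher and none lower. Of 10 tested neuron markers 1 fell and none rose (at an unadjusted p under 0.05, 2 lower and none higher; deposited 0 and 0), with sums of 1021, 1255 and 956 FPKM. The 12 listed vascular and fibroblast markers summed to 44.8, 53.6 and 30.2 FPKM, and 2 of 4 tested rose (deposited 3). Most of these sums was Dcn alone, at 38.4, 49.9 and 26.6 FPKM, and 8 of the 12 were not tested. Microglia markers summed to 2.37, 1.84 and 2.11 FPKM. The microglia markers Tyrobp and C1qc were listed at 0 in every group. The part of glial cells in the rise of Cryab and Hspb6 was not tested, and in whole cultures a change in the number of cells of a type and a change of RNA per cell cannot be told apart.

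Dnajc10 encodes a J-domain protein of the endoplasmic reticulum that reduces disulfide bonds of misfolded proteins. It stood at 84.0 FPKM in HDAC2 knockdown, 41.7 FPKM in Sp3 knockdown and 25.4 FPKM in control. Both knockdowns were above control, with 1.41 ± 0.35 in HDAC2 knockdown (adjusted p of 7.50e-04) and 0.85 ± 0.10 in Sp3 knockdown (adjusted p of 7.09e-15). These comparisons share the control libraries, and the difference between the knockdowns was 0.56 ± 0.37 (adjusted p of 0.359). Dnajc3, an inhibitor of the kinase PERK that also acts in the endoplasmic reticulum, stood at 26.1, 20.6 and 13.3 FPKM in the same order. It rose in Sp3 knockdown (0.77 ± 0.10, adjusted p of 9.66e-14), and in HDAC2 knockdown its value of 0.66 ± 0.26 had an adjusted p of 0.0595, although q was 0.00122 in the authors' deposited table.

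Dnajb2, a neuronal J-domain protein that binds ubiquitin, fell in HDAC2 knockdown by 0.82 on the log2 scale (SE 0.13, adjusted p of 7.40e-09) and by 0.28 in Sp3 knockdown (SE 0.11, adjusted p of 0.0327). Its level was 11.6 FPKM in HDAC2 knockdown, 12.3 FPKM in Sp3 knockdown and 16.4 FPKM in control. The centred values differed between the knockdowns (-0.54 ± 0.17, adjusted p of 0.0146), while without centring both lay below control by similar amounts. Dnajc27, a Rab-like GTPase with a J domain, went in opposite directions: 7.82 FPKM in HDAC2 knockdown and 14.1 FPKM in Sp3 knockdown, against 10.9 FPKM in control. It fell in HDAC2 knockdown (-0.79 ± 0.23, adjusted p of 0.00651) and rose in Sp3 knockdown (0.51 ± 0.10, adjusted p of 5.38e-06), and the difference of -1.30 ± 0.26 had an adjusted p of 1.34e-05. In HDAC2 knockdown its q in the authors' deposited table was 0.105. Hspa14, an Hsp70 relative that binds ribosomes, stood at 21.6, 20.9 and 29.0 FPKM and fell in both knockdowns (-0.74 ± 0.23, adjusted p of 0.0130, and -0.34 ± 0.11, adjusted p of 0.00885), with q = 0.157 in the authors' deposited table for HDAC2 knockdown.

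A further 11 members had q under 0.05 in the authors' deposited table for HDAC2 knockdown, all higher, and did not pass after centring. They were Hsf2, Hspa1b, Dnaja3, Dnajb12, Dnajc3, Dnajc14, Dnajc15, Dnajc16, Dnajc21, Bag1 and Bag4. Dnajc21 (0.76 ± 0.29, adjusted p of 0.0519) and Dnajc15, an inner-membrane protein of mitochondria (0.76 ± 0.33, adjusted p of 0.0920), came closest beside Dnajc3. Hspa1a (0.28 ± 0.28), Hspa1b (0.34 ± 0.27), Dnajb1 (-0.26 ± 0.23), Hsph1 (-0.66 ± 0.30) and Bag3 (-0.37 ± 0.37), named for their known response to heat, did not pass in HDAC2 knockdown, and Hspb1 had no test.

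**Figure D3:**
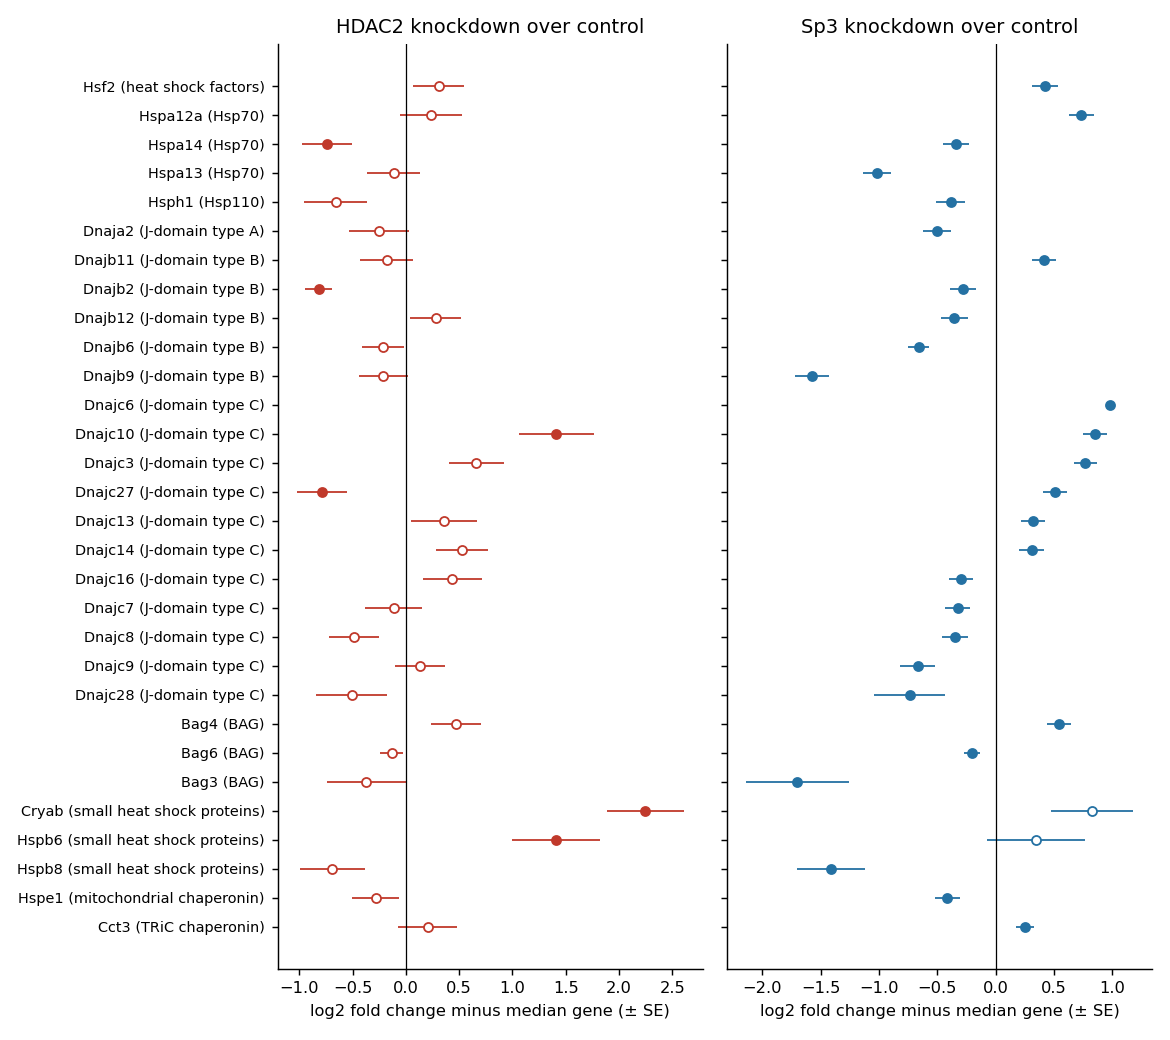
Centred log2 fold change ± SE (horizontal) of the members that passed the test in at least 1 knockdown, ordered by family, with HDAC2 knockdown on the left and Sp3 knockdown on the right. Filled points have an adjusted p under 0.05 and open points do not; Dnajc6 has no value in HDAC2 knockdown. Cryab is farthest right in HDAC2 knockdown at 2.25, and Bag3, Dnajb9, Hspb8 and Hspa13 are farthest left in Sp3 knockdown, at -1.70 to -1.02.

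In Sp3 knockdown more members passed, in both directions. Bag3, Hspb8, Dnajb9 and Hspa13 fell the most, and Dnajc6, Dnajc10, Dnajc3 and Hspa12a rose the most. Of the 78 tested members 11 rose (14.1%, against 20.2% of all tested genes) and 17 fell (21.8%, against 17.6%). At q under 0.05, the authors' deposited table had 8 higher (10.3%, against 13.2% of all genes) and 20 lower (25.6%, against 26.1%). The shares of rises were below those of all genes and the shares of falls close to them or above, and these differences were not tested. The median member had a log2 fold change of -0.14 as deposited and -0.01 after centring.

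Cell type markers moved in these libraries as well. Of 10 tested neuron markers 5 rose and none fell in Sp3 knockdown (at an unadjusted p under 0.05, 5 higher and 1 lower), with deposited counts of 5 higher and 2 lower. Of 11 tested astrocyte markers 3 rose and 6 fell, and the 3 rises were found after centring, since the deposited counts were 0 higher and 6 lower. Of 8 tested oligodendrocyte lineage markers none rose and 6 fell (none higher and 6 lower at an unadjusted p under 0.05), as in the deposited counts, and of 4 tested vascular and fibroblast markers 2 rose and 1 fell (deposited 1 and 1). Their part in the chaperone values was not tested.

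The genes for BAG3 and HSPB8, proteins known to form a complex that sends aggregated proteins to autophagy, both fell in Sp3 knockdown. Bag3 stood at 1.80 FPKM in HDAC2 knockdown, 0.524 FPKM in Sp3 knockdown and 1.87 FPKM in control, with -1.70 ± 0.44 in Sp3 knockdown (adjusted p of 5.60e-04). Before centring its log2 fold change was -1.83 from FPKM and -0.91 on log2(FPKM + 1). Hspb8 stood at 3.28, 1.46 and 4.26 FPKM in the same order, with -1.42 ± 0.29 (adjusted p of 1.00e-05). Both were low genes, and the test of the difference between the knockdowns was not passed by Bag3 (adjusted p of 0.111) or Hspb8 (adjusted p of 0.287). Of the other BAG genes 1 rose and 1 fell. Bag4, which restrains death receptor signalling, rose in Sp3 knockdown (16.0 FPKM in HDAC2 knockdown, 12.4 in Sp3 knockdown and 9.31 in control, 0.54 ± 0.11 in Sp3 knockdown, adjusted p of 2.10e-06). Bag6, which guides tail-anchored membrane proteins, fell slightly (-0.20 ± 0.07, adjusted p of 0.0139), and Bag1 (-0.10 ± 0.11), Bag2 (0.28 ± 0.18) and Bag5 (-0.15 ± 0.13) did not pass.

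Of the members that act in the endoplasmic reticulum some fell and some rose in Sp3 knockdown; they are described one by one, chosen after their values were seen. Dnajb9, a J-domain protein that hands clients to degradation and is induced by the unfolded protein response, fell to 8.11 FPKM in Sp3 knockdown, against 26.5 FPKM in control, with 28.5 FPKM in HDAC2 knockdown. Its centred value was -1.57 ± 0.14 in Sp3 knockdown (adjusted p of 1.89e-26) and -0.21 ± 0.23 in HDAC2 knockdown, and the difference of 1.36 ± 0.27 had an adjusted p of 1.65e-05. Hspa13, an Hsp70 relative of microsomes, stood at 54.5 FPKM in HDAC2 knockdown, 21.4 FPKM in Sp3 knockdown and 47.4 FPKM in control. It fell in Sp3 knockdown (-1.02 ± 0.12, adjusted p of 1.98e-16) and differed between the knockdowns (0.90 ± 0.28, adjusted p of 0.0121). In the other direction, besides Dnajc10 and Dnajc3, the BiP cofactor gene Dnajb11 rose in Sp3 knockdown (52.5 FPKM, against 43.1 FPKM in control, 0.42 ± 0.10, adjusted p of 2.41e-04). Dnajc1 (0.07 ± 0.10) and Hsp90b1, the Hsp90 gene of this compartment (0.02 ± 0.42), did not pass.

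Among J-domain genes of membrane traffic, Dnajc6 and Dnajc13 rose and Dnajc5 did not pass. Dnajc6 encodes auxilin, which strips clathrin from vesicles in neurons, and stood at 87.1 FPKM in HDAC2 knockdown, 107.7 FPKM in Sp3 knockdown and 60.0 FPKM in control. It rose in Sp3 knockdown (0.98 ± 0.02), with q listed as 0 in the authors' deposited table and an SE far below that of other members of similar level, and it has no test in HDAC2 knockdown. Dnajc13, which acts on endosomes, rose by less (16.8 FPKM in Sp3 knockdown and 14.8 FPKM in control, 0.32 ± 0.11, adjusted p of 0.00900) and passed only after centring, as did Dnajc14, a membrane protein of the endoplasmic reticulum (0.31 ± 0.11, adjusted p of 0.0132). Dnajc5, the cysteine string protein gene of synaptic vesicles, stood at 83.2 FPKM in HDAC2 knockdown, 82.0 FPKM in Sp3 knockdown and 83.6 FPKM in control and did not pass (0.11 ± 0.19 in Sp3 knockdown).

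Among the other J-domain genes that fell in Sp3 knockdown, Dnajb6, Dnaja2 and Dnajc9 fell the most of those above 2 FPKM in control. Dnajb6, which keeps polyglutamine proteins from aggregating, stood at 86.2 FPKM in HDAC2 knockdown, 46.5 FPKM in Sp3 knockdown and 80.5 FPKM in control (-0.66 ± 0.09 in Sp3 knockdown, adjusted p of 2.68e-12). Dnaja2, a cofactor of Hspa8, stood at 57.9, 35.6 and 55.3 FPKM in the same order (-0.50 ± 0.12, adjusted p of 1.68e-04). Dnajc9, a cofactor that also binds histones, stood at 19.2, 8.08 and 14.1 FPKM, fell in Sp3 knockdown (-0.67 ± 0.15, adjusted p of 5.51e-05) and differed between the knockdowns (0.80 ± 0.28, adjusted p of 0.0303). Smaller falls in the J-domain family were found for Dnajb12 (-0.36 ± 0.12), Dnajc8 (-0.35 ± 0.11), Dnajc7 (-0.33 ± 0.11), Dnajc16 (-0.30 ± 0.11) and Dnajb2. Dnajc28, at 0.869 FPKM in Sp3 knockdown and 1.59 FPKM in control, passed narrowly (adjusted p of 0.0441). Its log2 fold change, before centring, was -0.87 from FPKM and -0.47 on log2(FPKM + 1). J-domain genes that did not pass in Sp3 knockdown included Dnaja1 (-0.12 ± 0.06) and Dnajb1 (-0.01 ± 0.12).

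In the Hsp110, mitochondrial chaperonin and TRiC families 1 gene each passed in Sp3 knockdown. Hsph1, an Hsp110 exchange factor, fell in Sp3 knockdown (34.4 FPKM, against 49.3 FPKM in control, -0.38 ± 0.12, adjusted p of 0.00751), whereas Hspa4 (-0.07 ± 0.21) and Hspa4l (0.01 ± 0.10) did not pass. Hspe1, the co-chaperonin of mitochondria, fell (51.9 FPKM, against 75.9 FPKM in control, -0.41 ± 0.11, adjusted p of 7.89e-04), and its partner Hspd1, from the same divergent promoter, had 79.9 FPKM in Sp3 knockdown and 95.1 FPKM in control and did not pass (-0.12 ± 0.14). Of the 8 tested TRiC genes Cct3 rose slightly after centring (0.25 ± 0.08, adjusted p of 0.00388), and the other members ranged from -0.24 to 0.10. Hspa12a, an atypical Hsp70 of brain, rose (30.5 FPKM in Sp3 knockdown, against 20.1 FPKM in control, 0.73 ± 0.11, adjusted p of 1.04e-10). Hspa2, Dnaja1 and Cct2 were lower by q in the authors' deposited table for Sp3 knockdown and did not pass after centring.

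The heat shock factors were expressed at a modest level. Hsf2, which is active in development, stood at 21.5 FPKM in HDAC2 knockdown, 17.0 FPKM in Sp3 knockdown and 14.0 FPKM in control, and it rose in Sp3 knockdown (0.42 ± 0.11, adjusted p of 7.60e-04). Hsf1, the regulator of the heat shock response, stood at 10.5, 9.60 and 10.1 FPKM and did not pass in HDAC2 (-0.26 ± 0.25) or Sp3 knockdown (0.05 ± 0.14). Hspa1a (-0.21 ± 0.19) and Hspa1b (-0.23 ± 0.18), direct targets of heat shock factor 1, did not pass in Sp3 knockdown either, nor did Dnajb1 (-0.01 ± 0.12). Of the other genes named above for their known response to heat, Hsph1 (-0.38 ± 0.12) and Bag3 (-1.70 ± 0.44) fell there, and Hspb1 had no test.

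**Figure D4:**
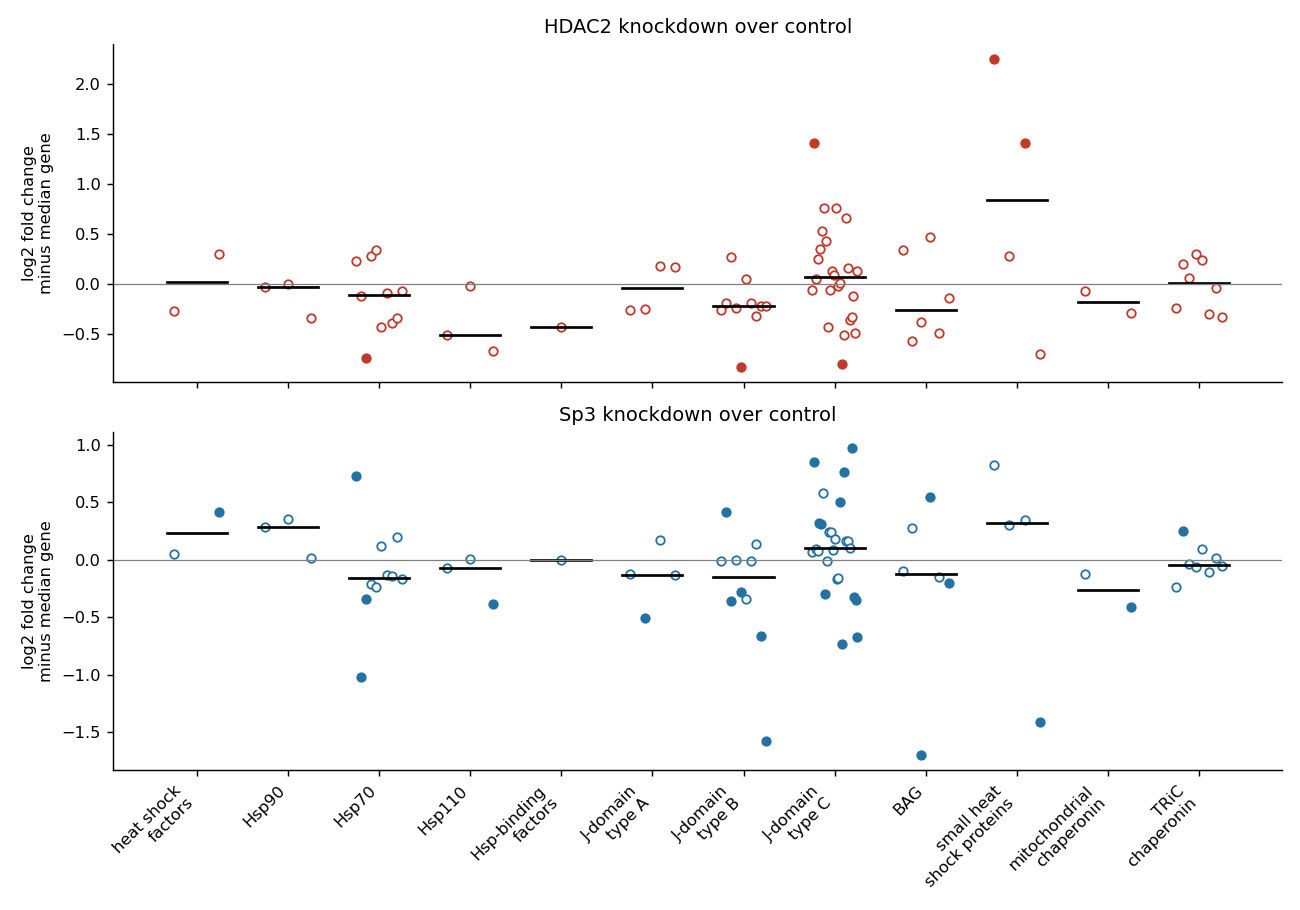
Centred log2 fold change of every tested member by family, with HDAC2 knockdown above and Sp3 knockdown below; each point is a gene, filled where its adjusted p was under 0.05, and black lines are family medians. In HDAC2 knockdown the genes grouped by symbol as small heat shock proteins have the highest median, 0.85 over 4 genes, Hspb11 among them. In Sp3 knockdown the type C J-domain genes spread from -0.74 to 0.98.

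By family, the J-domain genes, the most numerous, held 3 of the 6 calls in HDAC2 knockdown and 17 of the 28 in Sp3 knockdown. Of the 77 members tested in HDAC2 knockdown 4 were of J-domain type A, 10 of type B and 24 of type C. Of the 78 tested in Sp3 knockdown 4, 10 and 25 were. Among all tested genes 10.2% rose and 7.59% fell in HDAC2 knockdown, and 20.2% rose and 17.6% fell in Sp3 knockdown. By deposited q, 24.6% of all tested genes were higher and 3.6% lower in HDAC2 knockdown. In Sp3 knockdown these shares were 13.2% and 26.1%. Of the type C genes 1 of 24 rose and 1 fell in HDAC2 knockdown (4.17% each), while the deposited counts were 6 higher and 0 lower. In Sp3 knockdown 6 of 25 rose (24.0%) and 5 fell (20.0%), with deposited counts of 4 higher (16.0%) and 5 lower (20.0%). Type C genes had summed levels of 661 FPKM in HDAC2 knockdown, 529 FPKM in Sp3 knockdown and 483 FPKM in control. Of 10 type B genes 1 fell in HDAC2 knockdown (deposited 1 higher and 1 lower), and 1 rose and 4 fell in Sp3 knockdown (also the deposited counts), with sums of 278, 199 and 256 FPKM in the same order. Of 10 Hsp70 genes 1 fell in HDAC2 knockdown (deposited 1 higher and 0 lower), and 1 rose and 2 fell in Sp3 knockdown (deposited 1 higher and 3 lower). The genes grouped by symbol as small heat shock proteins, with Hspb11, summed to 31.3 FPKM in HDAC2 knockdown, 15.3 FPKM in Sp3 knockdown and 15.6 FPKM in control. None of the 3 Hsp90 genes passed in either knockdown in this test of the Cuffdiff statistic, nor did any at an unadjusted p under 0.05. In HDAC2 knockdown none of the 8 TRiC genes passed, also at an unadjusted p under 0.05, and their centred median was 0.01.

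The difference between knockdowns passed for 6 of the 77 members with a value in both tables. Cryab, Dnajb9, Hspa13 and Dnajc9 were higher in HDAC2 than in Sp3 knockdown relative to the median gene (5.19% of members, against 7.86% of all genes). Dnajc27 and Dnajb2 were lower (2.60%, against 6.87%). Control error enters this test from both comparisons, so its standard error is too large.

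The other genes of the pathway, were taken as a list of co-chaperones and folding factors. Of 40 tested genes 3 fell (7.50%, against 7.59% of all genes) and none rose (against 10.2%) in HDAC2 knockdown. In Sp3 knockdown 13 fell (32.5%, against 17.6%) and 5 rose (12.5%, against 20.2%), and these differences from all genes were not tested. At an unadjusted p under 0.05 of the centred statistic 7 were lower and 3 higher in HDAC2 knockdown. At q under 0.05, the authors' deposited tables had 5 higher (12.5%, against 24.6% of all genes) and 1 lower (2.5%, against 3.6%) in HDAC2 knockdown. In Sp3 knockdown they had 3 higher (7.5%, against 13.2%) and 16 lower (40.0%, against 26.1%). Tomm34, a cofactor of Hsp70 and Hsp90 in mitochondrial import, fell in both: it stood at 9.85 FPKM in HDAC2 knockdown, 10.4 FPKM in Sp3 knockdown and 21.0 FPKM in control (-1.41 ± 0.25, adjusted p of 3.96e-07, and -0.88 ± 0.12, adjusted p of 1.52e-11).

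Chordc1, an Hsp90 cofactor, fell in HDAC2 knockdown (-0.87 ± 0.24, adjusted p of 0.00355), as did Pdrg1 (-0.65 ± 0.23, adjusted p of 0.0339). Neither was called there by the authors' deposited q (q = 0.0655 and 0.275). By that q Pdrg1 was also lower in Sp3 knockdown, at 22.3 FPKM, against 32.5 FPKM in control (q = 3.65e-05). In Sp3 knockdown the prefoldin genes Vbp1 (-0.74 ± 0.11) and Pfdn2 (-0.65 ± 0.23) fell, with the TRiC cofactors Pdcl3 (-0.78 ± 0.19) and Pdcl (-0.63 ± 0.14). The prefoldin genes Pfdn1, Pfdn4 and Pfdn5 were not called there by the authors' deposited q (q = 0.335, 0.333 and 0.488). They stood at 28.8, 14.9 and 98.8 FPKM in Sp3 knockdown, against 31.8, 17.5 and 105.7 FPKM in control. Prefoldin delivers actin and tubulin to TRiC. The Hsp90-binding prolyl isomerase genes Fkbp5 (-0.60 ± 0.14) and Ppid (-0.53 ± 0.11) fell in Sp3 knockdown too. Their relative Fkbp4 stood at 32.8 FPKM in Sp3 knockdown and 33.1 FPKM in control and was not called (authors' deposited q = 0.954). Sgtb, a neuronal cofactor of Hsp70, rose (28.5 FPKM in Sp3 knockdown, against 18.6 FPKM in control, 0.75 ± 0.10, adjusted p of 2.51e-12), and so did Hyou1, an exchange factor of the endoplasmic reticulum (0.69 ± 0.18, adjusted p of 8.30e-04).

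**Figure D5:**
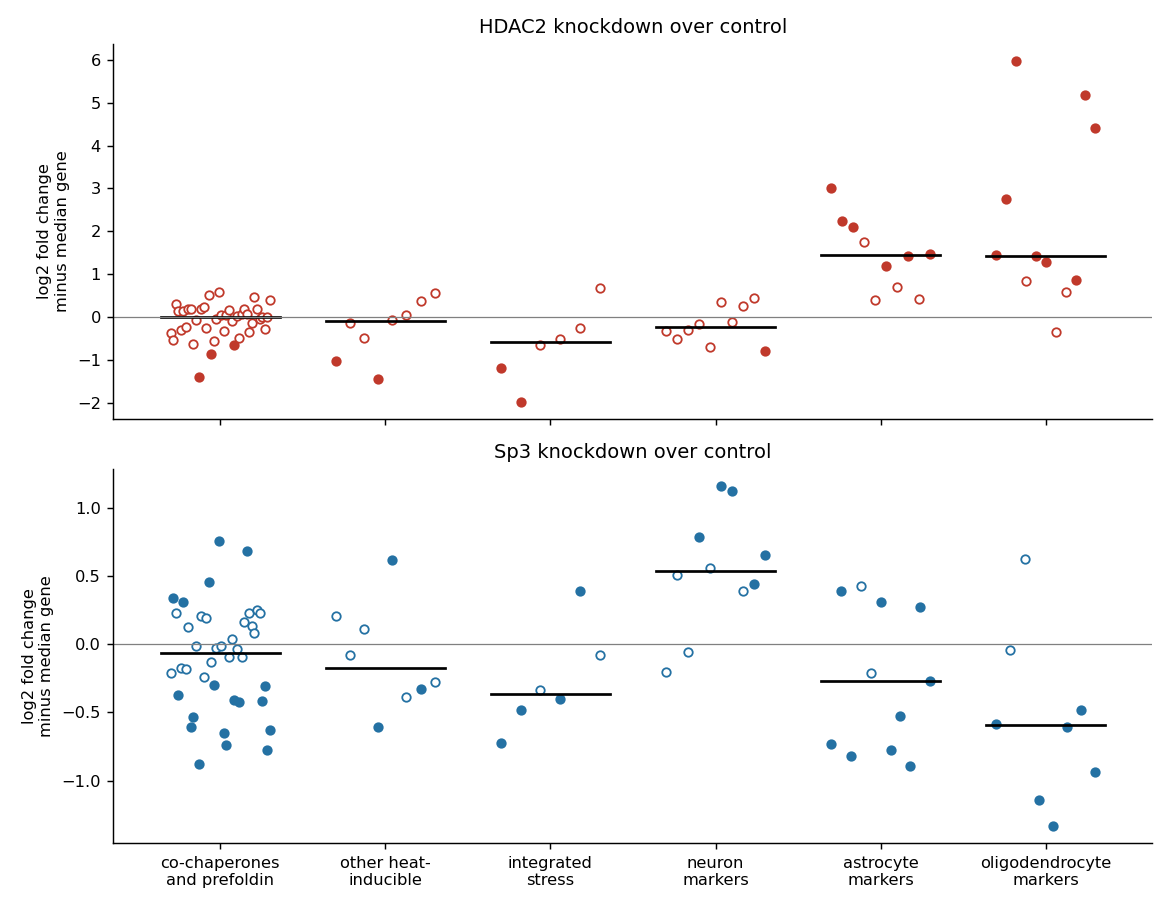
Centred log2 fold change of each tested gene in 6 other lists, with HDAC2 knockdown above and Sp3 knockdown below; filled points have an adjusted p under 0.05 and black lines are medians. Astrocyte and oligodendrocyte markers are high in HDAC2 knockdown, with medians of 1.45 and 1.42, while the co-chaperone list is centred near 0 in both.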

How the data were processed

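The authors deposited 1 table per knockdown. Per the file headers each gene has its FPKM in either group, with a log2 fold change, p-value, q-value and test statistic. TopHat, Bowtie, Cuffdiff and mm9 are named, per the submitters' processing notes, while versions, annotation and strand setting are not given. Control FPKM is equal in both deposited tables for all 23235 genes, so the comparisons share their control. The test statistic, a score deposited by the authors, runs against the fold change in sign and gives the deposited p-value as a normal deviate. A fold against a group at 0 is written there as an extreme number and was not used.

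The SE is the log2 fold change divided by the sign-reversed statistic, and SEs over 5 were set aside (7 genes in each table). Centring subtracted the median over genes of at least 1 FPKM in either group. A normal two-sided p was adjusted by the Benjamini-Hochberg method over all genes with status OK and an SE. The difference between knockdowns was divided by the root of the summed squared SEs and adjusted likewise. Scripts ran in Python 3.11.15 with pandas 2.3.3, scipy 1.17.1 and matplotlib 3.10.9 and were tested on simulated data.

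The depth of a library is unknown: FPKM holds no read counts, and only pooled values are given. Among genes under 0.3 FPKM the most common ratio to control was 0.939 in HDAC2 knockdown (19 genes) and 1.62 in Sp3 knockdown (48 genes). Members, lists and named genes were chosen with earlier results of these data known. The rule named fixed examples of each family, every member called under either rule, the highest 2 members of a family and list genes that were called. Not all list genes named by the rule are printed.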

Additional observations from a re-analysis of the deposited data

How the results depend on the processing

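Centring on the median gene changed the HDAC2 counts most: 14 higher and 1 lower member became 3 and 3, and the same under upper-quartile scaling, which called the same 6 members as centring. At a q threshold of 0.01 the deposited table gave 9 higher, and at an adjusted p of 0.1 the centred count of higher members was 6. The median member moved to -0.062 in HDAC2 and -0.0057 in Sp3 knockdown after centring. In Sp3 knockdown a minimum log2 fold change of 0.5 left 4 higher and 10 lower members, while scaling and filters kept its counts within 1.5 times. The co-chaperone counts after centring were 0 higher and 3 lower in HDAC2 and 5 higher in Sp3 knockdown, and at a q threshold of 0.01 they were 3 higher in HDAC2 and 1 higher in Sp3 knockdown. The difference between knockdowns gave 19 members higher in HDAC2 knockdown and 1 lower without centring, where the unlike shifts of the median gene enter. At an adjusted p of 0.01 it gave 1 and 1. Shares over all genes are not given for these 2 settings, so the counts show the effect of the setting and are no result about chaperones.

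No called member changed sign on centring; 11 calls were lost and 2 gained in HDAC2 knockdown, and 3 lost and 3 gained in Sp3 knockdown. Among members called under neither rule 24 in HDAC2 and 11 in Sp3 knockdown had the other sign after centring, so their signs depend on the scaling. On log2(FPKM + 1), 150 values of single members moved by less than their SE and 5 by more. The 5, before centring, were Cryab (2.08, against 2.56 from FPKM) and Hspb6 (1.21, against 1.72) in HDAC2 knockdown, and Bag3 (-0.91, against -1.83), Hspb8 (-1.10, against -1.55) and Dnajc28 (-0.47, against -0.87) in Sp3 knockdown. No paired analysis was possible because the deposited tables hold 1 value per group, and for the same reason leaving out a replicate was not run. Members above 200 FPKM are limited by the width of their errors and members under 1 FPKM by missing tests.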

Other observations

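Of other genes that heat and oxidative stress induce, those that passed fell in HDAC2 knockdown and went in both directions in Sp3 knockdown. Of 8 listed genes none rose (1 higher and 2 lower at an unadjusted p under 0.05 of the centred Cuffdiff statistic) and 2 fell in HDAC2 knockdown, Hmox1, which encodes a haem-degrading enzyme (7.77 FPKM in HDAC2 knockdown and 12.7 FPKM in control, centred value -1.03 ± 0.26, adjusted p of 7.50e-04), and the stress factor gene Atf3 (2.15 and 4.74 FPKM, -1.45 ± 0.32, adjusted p of 1.08e-04). The deposited counts in HDAC2 knockdown were 2 higher and 2 lower. The higher genes were the metallothionein genes Mt1 (328 FPKM in HDAC2 knockdown and 204 FPKM in control, q = 0.0333 in the authors' deposited table) and Mt2 (115 and 62.5 FPKM, q = 6.74e-04), which did not pass after centring. In Sp3 knockdown Atf3 (-0.61 ± 0.22, adjusted p of 0.0184) and Mt1 (148 FPKM in Sp3 knockdown and 204 FPKM in control, -0.33 ± 0.11, adjusted p of 0.00801) fell. Sqstm1, an autophagy receptor gene, rose there (208 and 149 FPKM, 0.61 ± 0.19, adjusted p of 0.00498), and the deposited counts were 1 higher and 3 lower. Among all tested genes 20.2% rose and 17.6% fell in Sp3 knockdown (deposited 13.2% higher and 26.1% lower). The differences of this list from all genes were not tested.

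Some genes of the integrated stress response fell in the same libraries as the chaperones described above. Ddit3, a transcription factor gene of this response, stood at 19.2 FPKM in HDAC2 knockdown, 19.4 FPKM in Sp3 knockdown and 35.0 FPKM in control. It fell in both (-1.18 ± 0.25, adjusted p of 3.58e-05, and -0.72 ± 0.13, adjusted p of 5.22e-07). Chac1, which degrades glutathione, stood at 4.21, 8.67 and 13.3 FPKM and fell in both as well (-1.97 ± 0.29, adjusted p of 5.63e-10, and -0.48 ± 0.15, adjusted p of 0.00568). Of the 6 genes listed, 2 fell and none rose in HDAC2 knockdown (2 lower and none higher at an unadjusted p under 0.05), and 3 fell and 1, Asns, rose in Sp3 knockdown (0.39 ± 0.12, adjusted p of 0.00376). The deposited counts were 0 higher and 2 lower in HDAC2 knockdown, and 0 higher and 3 lower in Sp3 knockdown. Among all tested genes 10.2% rose and 7.59% fell in HDAC2 knockdown (deposited 24.6% higher and 3.6% lower). In Sp3 knockdown 20.2% rose and 17.6% fell (deposited 13.2% higher and 26.1% lower). The differences of these 6 genes from all genes were not tested. The comparisons share their control libraries, and the part of this response in the chaperone changes was not tested.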
